A study of Rattus norvegicus with 12 samples.

Results

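Annexins and the S100 proteins that bind them were followed in the liver of obese rats fed a mushroom-derived supplement. The set holds 10 genes, the annexins Anxa1 to Anxa7 and the S100 genes S100a6, S100a10 and S100a11, among 18166 genes with a value. They were taken by symbol from the platform annotation, with the brightest row kept for a gene with several. Each of the 10 genes had 1 row, so no measured value decided which row was used. The group itself was chosen by a reading of earlier results of these data, the differences between the diets among them, so the values below describe the genes and are no independent support for a shift of the group. All p-values come from the fit across all genes.

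Annexins bind acidic phospholipids in membranes when calcium is present, and small EF-hand proteins of the S100 family join some of them into larger complexes. The best known complex holds annexin A2 and S100A10, sits under the plasma membrane and binds plasminogen and its activator at the cell surface. In liver these proteins are best known from bile duct epithelium, macrophages, stellate cells and injured or dedifferentiating hepatocytes.

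The animals were 12 male obese Zucker rats (Crl:ZUC-Leprfa), all homozygous for the fa allele of the leptin receptor gene, with no lean rats among them. Of these, 6 had eaten a diet with 5% PSC, the labels' name for a supplement grown on a side stream of agriculture, and 6 a control diet without it. Each diet had been fed to 12 rats, of which these 6 were profiled. Gross energy and crude nutrients of the diets were comparable, feeding lasted 4 weeks from an age of 5 to 6 weeks, and livers were taken on day 29. Each rat gave 1 array of the type Affymetrix Rat Gene 2.0 ST, and rats lived in pairs, so cage mates among them would not be fully independent. The values are log2 signals. The title of the series names the liver effects of a biotechnologically produced oyster mushroom as the question.

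The array medians lay between 4.71 and 4.85, and the correlation between arrays across genes was 0.987 at the lowest and 0.995 at the highest. At an adjusted p below 0.05, 343 of all genes fell in PSC-fed rats and 130 rose. The hepatocyte genes that served as a check of the tissue had mean log2 signals of 11.62 to 11.67 in PSC-fed and 11.56 to 11.62 in control rats. Precision is set by having 6 arrays a diet, and log2 signals of different genes cannot be ranked against each other, since probes differ in brightness.

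The stretches just before the start of Anxa5, Anxa4 and S100a11 are shown because these genes were lower in PSC-fed rats, and that of Anxa2 because it had the second largest difference among the 7 annexins of the set. The table used (RefSeq, assembly GRCr8) holds 8 of the 10 genes, and S100a10 and Anxa6 are not among them. Each sequence gives the 250 bases before the annotated start, 5′ to 3′ on the strand of the gene. They lie at chr2:121272697-121272946, minus strand, at chr4:120798514-120798763, minus strand, at chr2:181874882-181875131, plus strand, and at chr8:78986002-78986251, plus strand. Capitals mark matches, on either strand, to the TATA box (TATAAA), the CCAAT box (CCAAT), the GC box (GGGCGG) and the AP-1 site (TGANTCA).
Anxa5: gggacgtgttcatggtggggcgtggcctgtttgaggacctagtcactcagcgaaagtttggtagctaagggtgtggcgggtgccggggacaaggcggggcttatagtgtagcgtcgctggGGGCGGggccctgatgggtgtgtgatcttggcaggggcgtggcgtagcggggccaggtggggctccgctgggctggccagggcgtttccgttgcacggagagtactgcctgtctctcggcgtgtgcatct
Anxa4: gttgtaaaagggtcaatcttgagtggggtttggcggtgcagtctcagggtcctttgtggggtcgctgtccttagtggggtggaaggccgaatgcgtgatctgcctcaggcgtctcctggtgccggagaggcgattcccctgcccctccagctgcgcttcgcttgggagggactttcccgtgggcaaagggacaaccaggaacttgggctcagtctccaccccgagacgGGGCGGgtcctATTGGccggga
S100a11: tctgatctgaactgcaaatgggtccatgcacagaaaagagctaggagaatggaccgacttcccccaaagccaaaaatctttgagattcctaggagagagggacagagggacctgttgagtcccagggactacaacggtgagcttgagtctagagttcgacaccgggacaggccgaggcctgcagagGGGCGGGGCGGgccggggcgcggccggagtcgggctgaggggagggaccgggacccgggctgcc
Anxa2: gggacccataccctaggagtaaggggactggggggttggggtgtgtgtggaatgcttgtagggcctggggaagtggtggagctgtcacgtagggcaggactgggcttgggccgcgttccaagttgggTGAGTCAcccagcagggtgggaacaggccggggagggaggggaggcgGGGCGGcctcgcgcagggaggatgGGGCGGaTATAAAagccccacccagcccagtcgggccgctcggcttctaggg

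All 4 stretches held a GC box, which 30.5% of the 33469 stretches in the table hold. Anxa5 had 1 match, S100a11 had 2 that overlap, and Anxa4 had 1 beside a CCAAT box, a motif found in 34% of the table. Anxa2 had 2 GC boxes, a TATA box that begins 45 bases before the start and an AP-1 site that begins 123 bases before it. The TATA box was found in 12.9% and the AP-1 site in 6.34% of all stretches, and Anxa2 was the only gene among the 8 with an AP-1 match. Among the other 4 genes in the table, Anxa1 held a TATA box, Anxa7 a CCAAT box, S100a6 1 GC box and Anxa3 3 GC boxes. A match is a run of letters and was not tested as a binding site.

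Of the 10 genes, 4 fell in PSC-fed rats and 0 rose, at an adjusted p below 0.05, where 1.89% of all genes fell and 0.716% rose (2.6% in either direction). Those that fell were Anxa5, Anxa4, S100a11 and S100a10. Values below 0 were found for 9 of the 10 genes, against 45.7% of all genes, and the exception was Anxa3. The median log2 fold change was -0.36 over the 10 genes and 0.01 over all genes tested. Only Anxa5 and Anxa4 separated the diets without overlap, 2 of the 10 genes, where 1.48% of all genes did so downward. At an unadjusted p below 0.05, 7 of the 10 genes were lower and 1 was higher, against 10.1% and 9.02% of all genes.

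**Figure D1:**
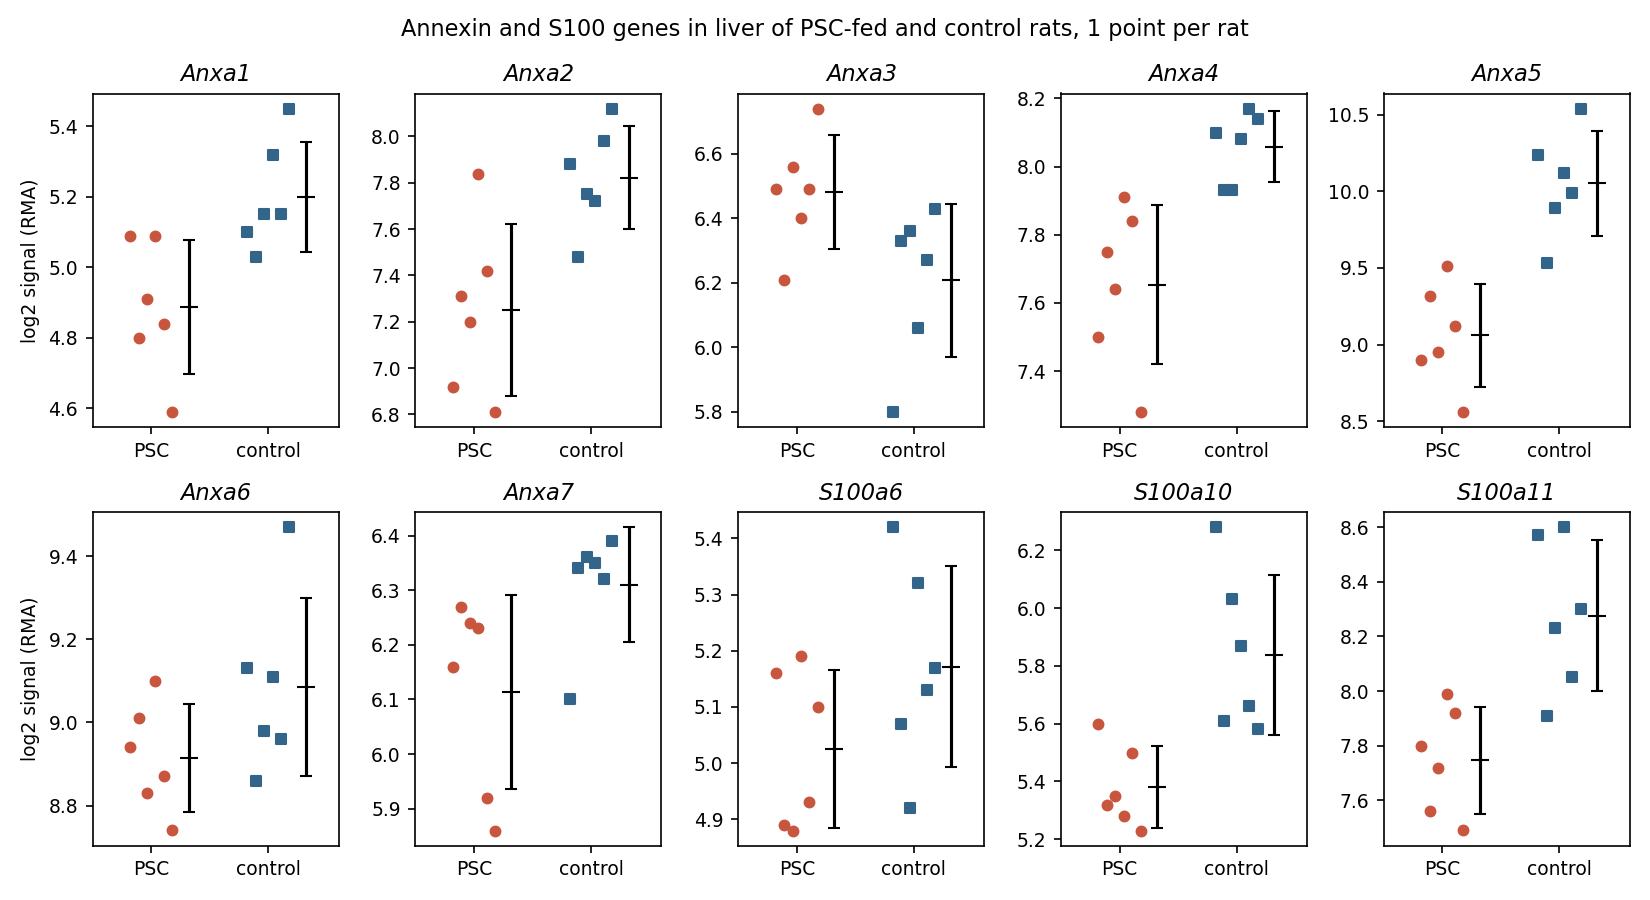
Log2 signal (vertical axis) of the 10 annexin and S100 genes, with 1 point per rat, 6 PSC-fed rats on the left and 6 control rats on the right of each panel, and black bars for the mean and SD; vertical axes differ and do not start at 0. The diets do not overlap for Anxa4 and Anxa5, and Anxa3 is the gene with the higher mean in PSC-fed rats.

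Anxa5 encodes the annexin that binds phosphatidylserine and serves in the laboratory as a probe of dying cells. Its log2 signal ran from 8.56 over a median of 9.04 to 9.51 in PSC-fed rats, and from 9.53 over a median of 10.05 to 10.54 in control rats. All 6 PSC-fed rats thus lay below every control rat, with a gap of a few hundredths between the closest rats of the diets. The means were 9.06 ± 0.34 in PSC-fed and 10.05 ± 0.34 in control rats (SD, n = 6 each), which is -0.99 on the log2 scale (SE 0.17, adjusted p = 0.00952), or 1.99-fold lower. Of all genes tested, 24 had a log2 fold change at or below that of Anxa5, which is 0.132%. With any 1 array left out Anxa5 kept an adjusted p of 0.0333 or lower.

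Anxa4, an annexin of epithelia that is strong in bile ducts, also separated the diets. Its log2 signal was 7.28 at the lowest, 7.70 at the median and 7.91 at the highest in PSC-fed rats, against 7.93, 8.09 and 8.17 in control rats. The 2 diets came closest in PSC replicate 4 and in control replicates 2 and 3, which shared the lowest control value. The mean was 7.65 ± 0.23 in PSC-fed and 8.06 ± 0.10 in control rats, a difference of -0.41 (SE 0.10, adjusted p = 0.0389). The adjusted p of Anxa4 reached 0.0897 with 1 array left out and passed the threshold in 3 of these 12 fits.

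Anxa2, the annexin that pairs with S100A10, had the second largest difference among the 7 annexins of the set and did not pass. Its log2 signal ran from 6.81 over a median of 7.26 to 7.84 in PSC-fed rats, and from 7.48 over a median of 7.82 to 8.12 in control rats. In 5 of 6 PSC-fed rats Anxa2 lay below every control rat, and PSC replicate 4, at 7.84, lay above the control median. The log2 fold change was -0.57 (SE 0.15, adjusted p = 0.0584). Without PSC replicate 4 it was -0.69 with an adjusted p of 0.0104, and leaving out other arrays gave an adjusted p of up to 0.122.

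The remaining annexins had smaller values, none of which passed. Anxa1, induced by glucocorticoids and known for dampening inflammation through formyl peptide receptors, had log2 signals of 4.59 to 5.09 in PSC-fed and 5.03 to 5.45 in control rats, a difference of -0.31 (SE 0.09, adjusted p = 0.0851). For Anxa7, first known as synexin for fusing secretory granules, the range was 5.86 to 6.27 in PSC-fed and 6.10 to 6.39 in control rats (-0.20, SE 0.08, adjusted p = 0.21). Anxa6, the annexin with a doubled core that acts on endosomes and cholesterol transport, ranged from 8.74 to 9.10 in PSC-fed and from 8.86 to 9.47 in control rats (-0.17, SE 0.09, adjusted p = 0.345). All 6 PSC-fed rats lay below the control median for Anxa1 and Anxa7, and 5 of 6 for Anxa6.

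Anxa3, an annexin abundant in neutrophils, went the other way. Its log2 signal was 6.21 at the lowest, 6.49 at the median and 6.74 at the highest in PSC-fed rats, against 5.80, 6.30 and 6.43 in control rats. The difference of 0.27 (SE 0.11, adjusted p = 0.184) did not pass, and 5 of 6 PSC-fed rats lay above the control median. Its 95% interval ran from 0.04 to 0.50, while that of Anxa5 ran from -1.35 to -0.64.

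S100a11, whose product binds annexin A1 and annexin A2, had the largest difference of the S100 genes. The log2 signal ran from 7.49 over a median of 7.76 to 7.99 in PSC-fed rats, and from 7.91 over a median of 8.27 to 8.60 in control rats. PSC replicates 4 and 5 reached into the control range through control replicate 2, the lowest control rat. The mean was 7.75 ± 0.20 in PSC-fed and 8.28 ± 0.28 in control rats, a difference of -0.53 (SE 0.12, adjusted p = 0.0357), or 1.44-fold lower. Leaving out 1 array gave an adjusted p of up to 0.0832, and 3 of these 12 fits passed. S100a11l1, a gene named as like S100a11 whose transcripts the probes may share (not tested), was at 3.46 ± 0.21 in PSC-fed and 3.64 ± 0.27 in control rats (adjusted p = 0.441). It was looked up after the values of S100a11 were seen.

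S100a10, which encodes the light chain of the annexin A2 complex and differs from other S100 proteins in needing no calcium to bind its partner, also fell. Its log2 signal was 5.23 at the lowest, 5.34 at the median and 5.60 at the highest in PSC-fed rats, against 5.58, 5.77 and 6.28 in control rats. PSC replicate 1 was the rat that reached the control range. The log2 fold change was -0.46 (SE 0.11, adjusted p = 0.0454), with means of 5.38 ± 0.14 in PSC-fed and 5.84 ± 0.28 in control rats. The call was kept in 1 of the 12 fits without 1 array, the one without control replicate 2, and the adjusted p reached 0.0974 in the others. S100a10 and S100a11 are neighbouring protein-coding genes in the assembly GRCr8.

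S100a6, or calcyclin, did not pass. Its log2 signal lay between 4.88 and 5.19 in PSC-fed rats and between 4.92 and 5.42 in control rats, so that the diets overlapped widely. The log2 fold change was -0.15 (SE 0.09, adjusted p = 0.384), with a 95% interval of -0.33 to 0.04.

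The number of the 10 genes that fell changed when single arrays were left out. It was 1 without PSC replicate 1, 3, 5 or 6 and without control replicate 1, 3, 4 or 6. It was 2 without PSC replicate 2 or control replicate 5, 4 without PSC replicate 4 and 5 without control replicate 2. Anxa5 was among the genes that fell in all 12 of these fits. Over these fits the log2 fold change of Anxa4 ran from -0.46 to -0.33. That of S100a11 ran from -0.60 to -0.47 and that of S100a10 from -0.51 to -0.37. Counts moved outside the set as well. In the other lists, described below, 14 genes fell with all arrays, 6 without control replicate 1 and 18 without PSC replicate 4, the extremes. The share of all genes that passed in each fit is not given here.

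**Figure D2:**
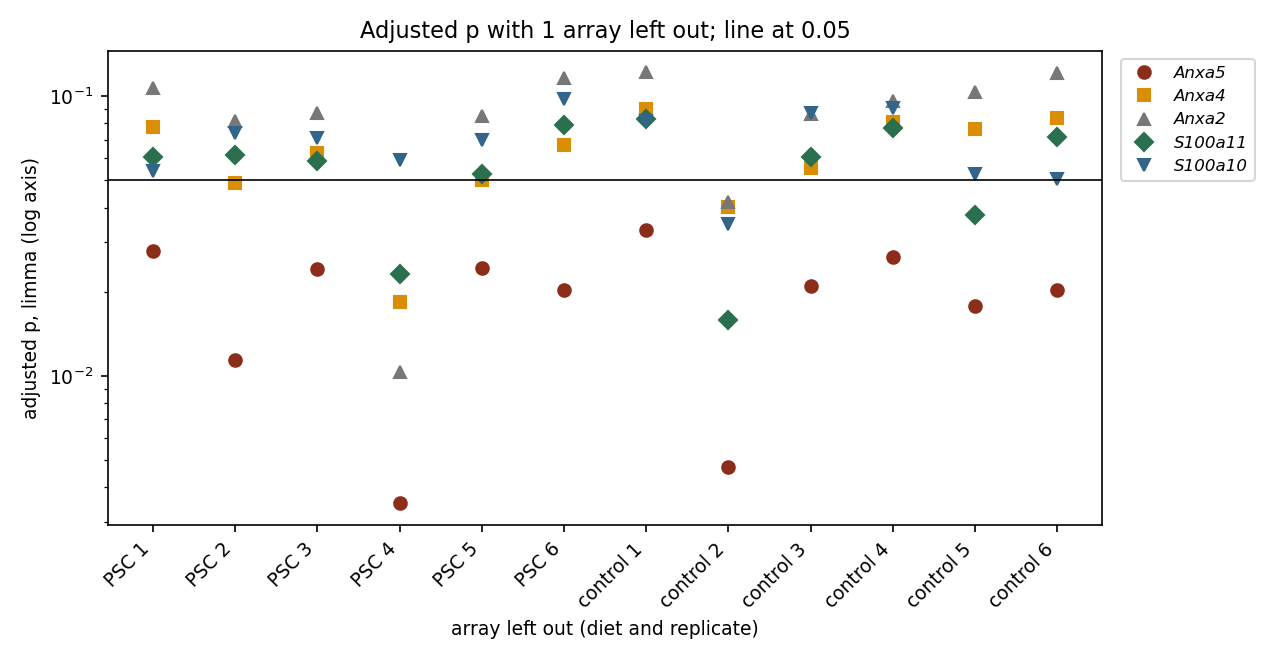
Adjusted p (limma, log axis) of 5 genes when the array on the horizontal axis was left out, with a line at 0.05; each point is 1 fit. Anxa5 stays below the line in all 12 fits, while Anxa2, Anxa4, S100a10 and S100a11 lie mostly above it and drop when control replicate 2 is left out.

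The same rats stood at the edges for most genes of the set. Among the 9 genes with a value below 0, PSC replicate 4 was the highest PSC-fed rat for 7 and PSC replicate 6 the lowest for 8. Control replicate 2 was the lowest control rat for 6 of them, and control replicate 6 the highest for 5. Averaged over the 4 genes that fell and centred on each gene's mean, the values ran from -0.62 in PSC replicate 6 to -0.09 in PSC replicate 4, and from -0.01 in control replicate 2 to 0.54 in control replicate 1.

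Partner genes were compared within each diet, where the difference between the diets plays no part. Over 6 relations, none passed after adjustment (exact two-sided permutation over 720 pairings, n = 6 rats each, Benjamini-Hochberg). Anxa2 and S100a10 gave Pearson's r of -0.18 in PSC-fed rats (exact p = 0.738, adjusted p = 0.885, Spearman's rho 0.03, exact p = 1.00) and of -0.06 in control rats (exact p = 0.928, adjusted p = 0.928, rho -0.20, exact p = 0.714). PSC replicate 4 had the highest Anxa2 signal of its diet and the second lowest S100a10 signal. Anxa1 and S100a11 gave r of 0.77 in PSC-fed rats (exact p = 0.0722, adjusted p = 0.321, rho 0.78, exact p = 0.0778) and of 0.43 in control rats (exact p = 0.397, adjusted p = 0.794, rho 0.52, exact p = 0.30). Anxa2 and S100a11 gave r of 0.71 in PSC-fed rats (exact p = 0.107, adjusted p = 0.321, rho 0.77, exact p = 0.103) and of 0.27 in control rats (exact p = 0.603, adjusted p = 0.885, rho 0.14, exact p = 0.803). The adjusted p over the 6 values of rho was 0.308 at the lowest.

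Without the 2 rats farthest from the median of the first gene, the values of r in PSC-fed rats were -0.53 for Anxa2 and S100a10, 0.31 for Anxa1 and S100a11, and 0.03 for Anxa2 and S100a11. In control rats they were -0.26, 0.30 and -0.54 in the same order of pairs. For Anxa2 and S100a11 in PSC-fed rats, the rats left out were PSC replicates 4 and 6. Leaving out the rats farthest in the first gene narrows its spread, with 4 rats left. A smaller r is therefore no sign that 2 rats alone carry a relation. In PSC-fed rats, replicates 1 and 4 tie in Anxa1, so which of them is left out with replicate 6 is arbitrary. The r of Anxa1 and S100a11 without 2 rats was 0.31 as deposited and 0.70 once arrays were centred on their medians. With all 6 rats the same r was 0.769 as deposited and 0.765 after centring.

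**Figure D3:**
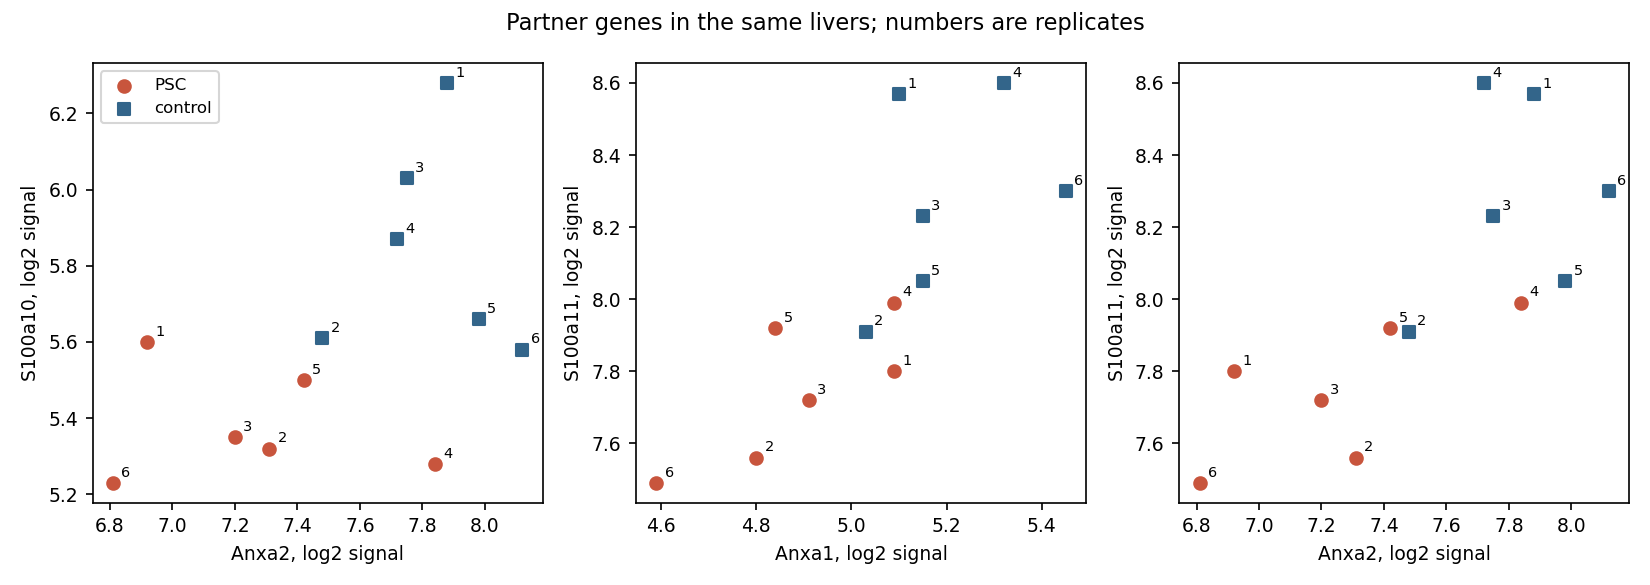
Log2 signals of partner genes against each other, 1 point per rat with its replicate number, circles for PSC-fed and squares for control rats. Within a diet, S100a10 shows no trend with Anxa2 (r = -0.18 in PSC-fed and -0.06 in control rats), and PSC replicate 6 is the lowest of all 12 rats for both genes in each panel.

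The genes whose pattern was most like that of Anxa2 over the 12 arrays, after the mean of each diet was taken off, were Ptk2b (r = 0.97), Slc43a2 (0.96), Pde5a (0.95), Wdr1 (0.94) and Sgcb (0.94), out of 18056 compared. Ptk2b encodes a calcium-dependent tyrosine kinase, Wdr1 an actin-disassembly factor and Sgcb a sarcoglycan. Their log2 fold changes were -0.51 for Ptk2b, -0.39 for Slc43a2, -0.37 for Pde5a, -0.28 for Wdr1 and -0.83 for Sgcb, of which Ptk2b, Wdr1 and Sgcb passed (adjusted p = 0.042, 0.0489 and 0.0041). Most like Anxa5 were Abcb1b, an efflux pump gene (r = 0.98), Plp2 (0.97), Siae (0.97), Slc35e2b (0.96) and Tyms (0.95). Abcb1b fell, by 1.94 on the log2 scale (adjusted p = 0.0133), while Plp2, Siae, Slc35e2b and Tyms had -0.37, -0.28, -0.23 and -0.26 and did not pass. These correlations are descriptions over arrays, picked as the highest of many.

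Outside the set, 4 of 5 further annexins of the list were measured, and 1 fell. Anxa8 had log2 signals of 5.84 to 6.75 in PSC-fed and 6.83 to 7.42 in control rats. Every PSC-fed rat lay below every control rat, and the log2 fold change was -0.73 (SE 0.15, adjusted p = 0.0266). Anxa11, a partner of S100A6, had -0.20 (adjusted p = 0.236), Anxa10 had 0.14 (adjusted p = 0.301) and Anxa13, an annexin of the intestine and kidney, had -0.03 (adjusted p = 0.879). Anxa8 kept its call in 8 of the 12 fits without 1 array.

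Of 14 other S100 genes, 13 were measured and none passed in either direction, and 1 was lower and 1 higher at an unadjusted p below 0.05. Their median log2 fold change was 0.02, and the values ran from -0.23 for S100a4, a gene of fibroblasts and macrophages, to 0.21 for S100a13. S100a8, a neutrophil gene, had -0.18 (adjusted p = 0.208). The mean log2 signal of this list was 3.8 to 3.9 in rats of both diets, below the lowest array median of 4.71. Background limits the changes that can be seen in the dim genes among them, so the lack of calls says little about those. A test of S100a10 and S100a11 against the other S100 genes was not run.

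**Figure D4:**
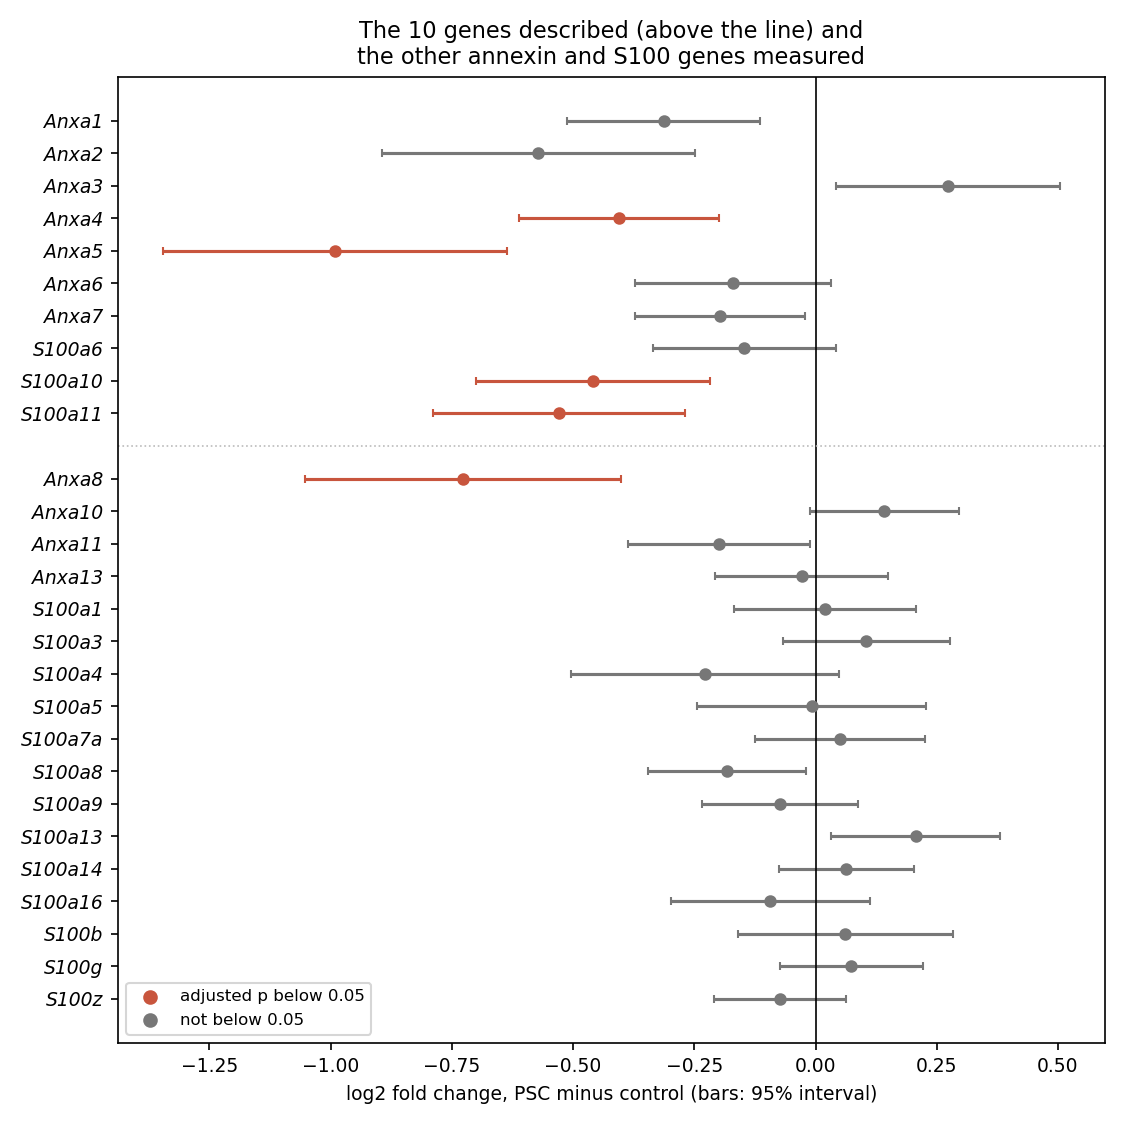
Log2 fold change, PSC minus control, on the horizontal axis with 95% intervals for the 10 genes described (above the dotted line) and for 4 other annexin and 13 other S100 genes (below it), with red for an adjusted p below 0.05. Anxa5 (-0.99) and Anxa8 (-0.73) lie farthest to the left, and the other S100 genes, dim ones such as S100a8 among them, lie between -0.23 and 0.21.

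Genes that work with annexins were read from lists. The shares over all genes, for these lists and the cell type lists below, were 1.89% fallen, 0.716% risen and 45.7% with a value below 0. At an unadjusted p below 0.05 they were 10.1% lower and 9.02% higher. In calcium-dependent membrane repair, in which annexins patch torn membranes, 2 of 13 measured genes fell and 0 rose, and 12 of 13 had a value below 0 (median -0.15). Both were calpain genes, which encode calcium-activated proteases. Capn1 was at 6.18 ± 0.13 in PSC-fed and 6.71 ± 0.10 in control rats, without overlap (-0.54, SE 0.07, adjusted p = 0.0041), and Capn2 at 7.13 ± 0.15 in PSC-fed and 7.59 ± 0.28 in control rats (-0.47, adjusted p = 0.0453). Their shared small subunit gene, Capns1, had -0.30 (adjusted p = 0.078). Capn1 kept its call in all 12 fits without 1 array. Capn2 kept it in 2, without PSC replicate 4 and without control replicate 2, and its value was -0.08 (adjusted p = 0.67) when all rows of a gene were averaged in place of the brightest, so it depends on the row.

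Among binding partners of these proteins and penta-EF-hand relatives of sorcin, 1 of 12 measured genes fell and 0 rose (median 0.04). It was Gca, which encodes grancalcin, with 4.84 ± 0.31 in PSC-fed and 5.43 ± 0.15 in control rats (-0.59, SE 0.12, adjusted p = 0.0266), and it kept its call in 6 of the 12 fits without 1 array. Sugt1, a partner of S100A6, and Asic1, a channel that binds S100A10, had -0.27 and 0.26 (adjusted p = 0.12 and 0.208). Of 8 genes of plasminogen activation, none passed (limma, 0 of 8 also at an unadjusted p below 0.05, median -0.04). Plgrkt, a plasminogen receptor gene, had -0.14, Plau, the urokinase gene, 0.17 and Serpine2 -0.13. Of 12 genes of annexin A1 signalling and arachidonate release, none passed either, and 1 was higher at an unadjusted p below 0.05 (median -0.01). Ptgs1 had 0.26, the formyl peptide receptor gene Fpr1 0.22 and the glucocorticoid receptor gene Nr3c1 0.10.

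Markers of other liver cells moved as well, and their part in the annexin values was not tested. In bulk liver, fewer cells of a type and less RNA per cell cannot be told apart. Of 10 measured markers of lipid-associated macrophages, 4 fell and 0 rose (median -0.39). Values lay below 0 for 8 of the 10 and above 0 for 2, and 7 were lower and 0 higher at an unadjusted p below 0.05. The mean log2 signal of that list ran from 5.50 to 6.16 in PSC-fed and from 6.08 to 6.70 in control rats. Mmp12, the macrophage elastase gene, had -1.90 (adjusted p = 0.0109), Fabp4 -1.50 (adjusted p = 0.0051), Olr1 -1.40 (adjusted p = 0.0256) and Lpl -0.66 (adjusted p = 0.013). The other measured genes of the list, Trem2, Gpnmb and Cd9 among them, did not pass. Olr1 kept its call in 8 of the 12 fits without 1 array, and Mmp12, Fabp4 and Lpl in all 12. PSC replicate 4 was the highest PSC-fed rat in this list and control replicate 2 the lowest control rat. Both held the same places in the list of stellate cells and portal fibroblasts, at 6.63 each. The same 2 rats were nearest to the other diet in the mean of the 4 annexin and S100 genes that fell, though not for S100a10 alone, where PSC replicate 1 and control replicate 6 were nearest.

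Of 15 measured markers of stellate cells and portal fibroblasts, 5 fell and 0 rose (median -0.28). Values lay below 0 for 12 of the 15 and above 0 for 3, and 9 were lower and 1 higher at an unadjusted p below 0.05. Their mean log2 signal was 6.33 to 6.63 in PSC-fed and 6.63 to 6.78 in control rats. Dcn had -0.88 and Tagln -0.92 (adjusted p = 0.0144 and 0.0183), Col1a2 had -0.58 (adjusted p = 0.0144), and Rgs5 and Col3a1 had -0.48 and -0.30. The count of this list was 3 without PSC replicate 1, 3, 5 or 6 or control replicate 3, 4, 5 or 6, 2 without control replicate 1 and 7 without PSC replicate 4. Over the 12 fits without 1 array, Dcn and Col1a2 kept their calls in 12, Tagln in 11, Rgs5 in 3 and Col3a1 in 2, and the count was 2 with the replicate block. Of 14 measured bile duct markers 1 fell, Spp1, which macrophages also express (-0.63, adjusted p = 0.0287, kept in 8 of the 12 fits without 1 array), and 0 rose. The keratin gene Krt19, a defining bile duct marker, had 0.27 (adjusted p = 0.102), the transcription factor gene Onecut1 had 0.66 (adjusted p = 0.158), and the mean signal of the list was 4.78 to 4.88 in PSC-fed and 4.77 to 4.84 in control rats. Of the 14 bile duct markers, 2 were lower and 3 higher at an unadjusted p below 0.05. Whether the fall of Anxa4 involved bile duct cells was not tested.

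Markers of Kupffer cells lay on the higher side, with 1 of 14 measured higher and 0 lower (median 0.34), 12 of 14 above 0 and 9 higher at an unadjusted p below 0.05. The mean log2 signal was 7.22 to 7.60 in PSC-fed and 6.51 to 7.35 in control rats, and Cd163 rose by 0.87 (adjusted p = 0.0436) while Vsig4 and Cd68 had 0.93 and 0.57 without passing. Cd163 kept its call in 4 of the 12 fits without 1 array, those without PSC replicate 2 or 4 or control replicate 1 or 2, and lost it with the replicate block and with all rows tested. Lymphocyte markers had 1 of 14 higher, Nkg7 (0.51, adjusted p = 0.0266), and 0 lower, while 12 of 14 were above 0 and 9 were higher at an unadjusted p below 0.05. Nkg7 kept its call in 8 of the 12 fits without 1 array. The list had 0.38 for Prf1 and 0.43 for Ccl5 (adjusted p = 0.0622 and 0.065), and a mean signal of 4.67 to 4.80 in PSC-fed and 4.47 to 4.61 in control rats. Of 14 hepatocyte genes 1 rose, Cebpa (0.30, adjusted p = 0.0412), and 0 fell, with 0.15 for Apoa2 and 0.10 for Ttr (adjusted p = 0.162 and 0.32). Cebpa kept its call in 1 of the 12 fits without 1 array, the one without control replicate 2, and lost it with the replicate block and with all rows tested. At an unadjusted p below 0.05, 2 of the 14 were higher and 0 lower. None passed among 12 neutrophil genes (1 lower and 1 higher at an unadjusted p below 0.05), with mean signals of 3.97 to 4.09 in PSC-fed and 3.97 to 4.07 in control rats. None of 8 endothelial genes passed (1 lower and 2 higher unadjusted), with 7.36 to 7.49 in PSC-fed and 7.24 to 7.52 in control rats, nor did any of 6 mesothelial genes (0 unadjusted), with 5.03 to 5.42 in PSC-fed and 4.92 to 5.56 in control rats. Il1r2 and Mmp9 of the neutrophil list had 0.20 each. No marker can be said to be at 0, since detection calls were not used here. Vwf, Stab1 and Lyve1 of the endothelium had -0.32, 0.22 and 0.44, and Upk3b, Lrrn4 and Msln of the mesothelium 0.17, -0.46 and 0.08.

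**Figure D5:**
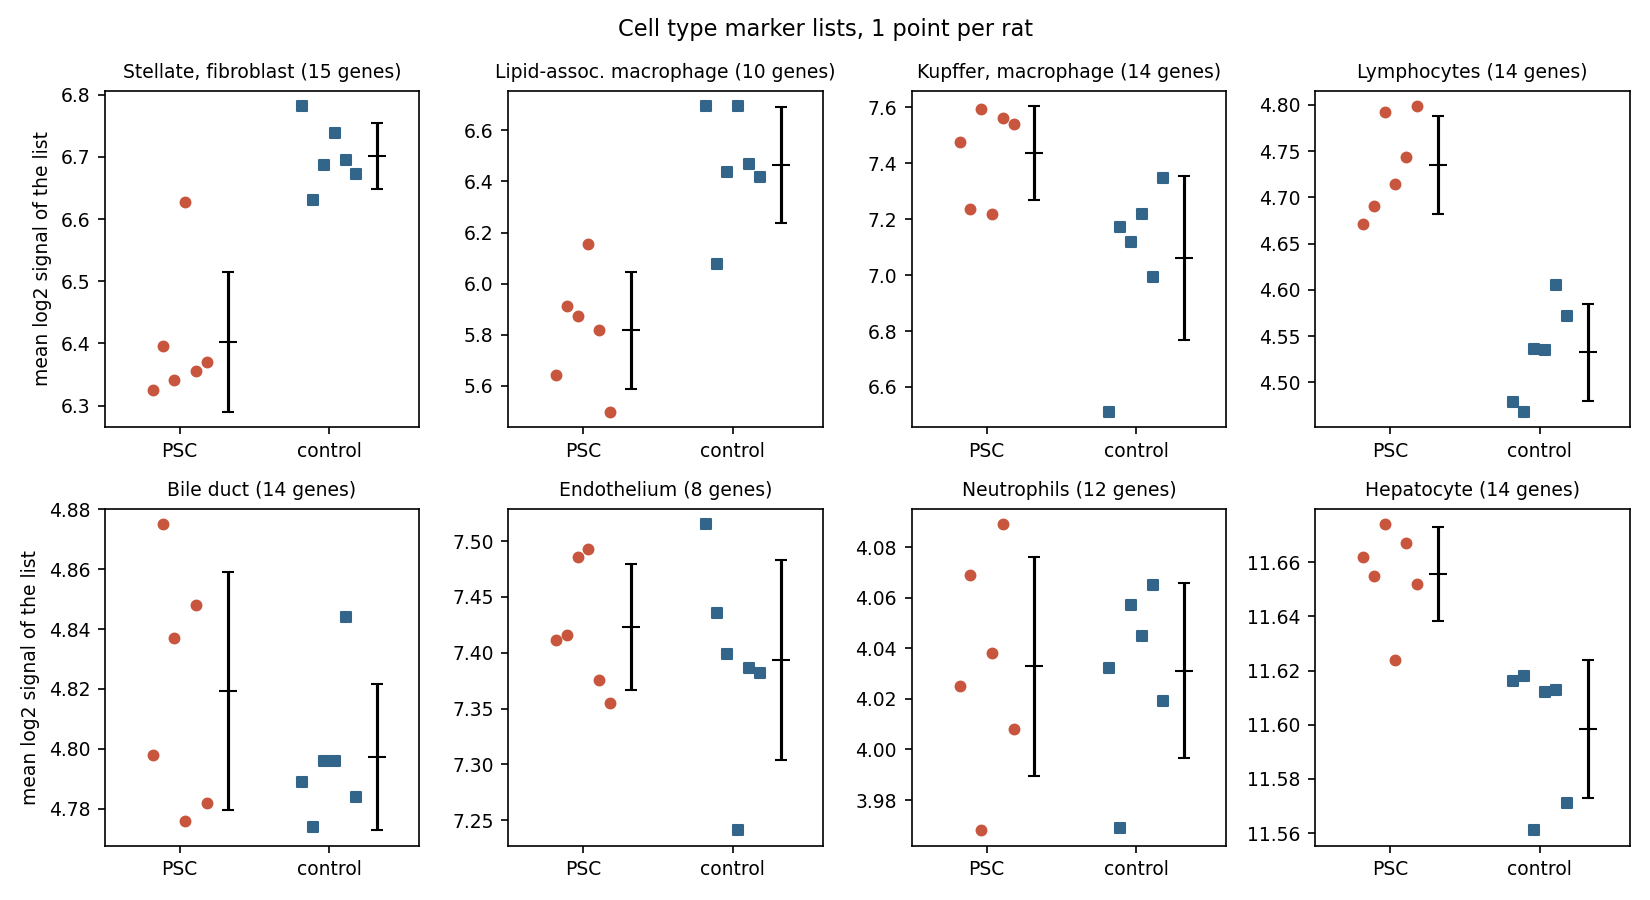
Mean log2 signal of 8 lists of cell type markers (vertical axis), 1 point per rat, PSC-fed rats left and control rats right in each panel, with black bars for the mean and SD; vertical axes differ and do not start at 0. The stellate list is lower in all PSC-fed rats, with PSC replicate 4 (6.63) next to the lowest control rat, while the lymphocyte list is higher in all of them.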

How the data were processed

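Liver RNA of 12 rats was measured on 1 array each. The authors deposited log2 signals, 1 per row and array. Per the submitters' processing notes, which name RMA and Affymetrix Expression Console, the authors normalized them before deposit. RMA corrects background, quantile normalizes arrays and summarises probes, which compresses small changes of dim genes. Tool versions are not given in the labels, and the array's genome build was not used here.

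Of 30347 rows, 18511 name 1 gene symbol in the platform annotation, 575 name several, and 11261 are unnamed here. The brightest row per symbol left 18166 genes. All 10 members matched RefSeq by gene number. Groups came from the sample titles. Diets were compared with limma 3.58.1 (lmFit and eBayes, R 4.3.3) across all 18166 genes, two-sided, with Benjamini-Hochberg adjustment and a threshold of 0.05. The test was checked on simulated data, drawn with independent noise for each gene and array and so without effects of shared cages. Figures used matplotlib 3.10.9.

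All genes of the set are named. In each other list the 3 genes with the smallest p are named, and every gene that passed. Likeness was ranked for Anxa2 and for the gene with the largest difference, passing over symbols that are only LOC, RGD or AABR numbers. The members and lists were chosen with earlier results of these data known, and the copy S100a11l1 and the promoter motifs were chosen after the values were seen. Of 188 genes in the other 15 lists, 165 were measured, 1 through a synonym. Genes without a value were not analysed here.

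Alternatives were 2 further normalizations, median centring, brighter genes only, all rows tested, the mean of a gene's rows, a variance prior with trend or robust, array weights, the replicate block, a threshold of 0.1 and leaving out each array. Leaving out PSC replicates 2 and 5 together was added after seeing the data.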

Additional observations from a re-analysis of the deposited data

Results flagged for a closer look

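Each value of a named gene was set against the other 5 rats of its diet, and 9 of 134 such groups had a rat far from the rest, where chance gives about 1 in 20. Among the annexin and S100 genes of the set there was 1, Anxa7, which lay at 6.10 in control replicate 1 while the other control rats were at 6.32 to 6.39. In PSC replicate 6, Anxa11 lay at 7.61, below 8.02 to 8.18 in the other PSC-fed rats, and S100a13 at 5.88, above 5.36 to 5.55. Asic1 was at 4.66 in PSC replicate 2, Nr3c1 at 8.60 in PSC replicate 3 and Col3a1 at 9.08 in PSC replicate 4, each above the other rats of the diet. Capns1 lay at 10.40 and Cd163 at 4.96, below the other control rats, in control replicates 2 and 1, and Upk3b at 4.78, above them, in control replicate 6.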

How the results depend on the processing

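The 10 annexin and S100 genes kept the direction of their difference under the alternatives in which each was tested. Anxa1 and S100a6 are not among the brighter genes and were not tested in that fit. Of the 10 genes, 4 fell in the fit as reported, 1 with all rows tested, 2 with cyclic loess, 2 with quantile normalization repeated, 3 with array weights, 5 of the 8 tested with brighter genes only, 5 with a variance trend, 6 at a threshold of 0.1 and 2 without PSC replicates 2 and 5 together. Same-numbered rats of the diets deviated from their diet means with correlations of -0.15 to 0.11 across genes, below 0 in 5 of 6 pairs, so the numbers were not taken as pairs. With the replicate block 1 passed, S100a11 (adjusted p = 0.0461), while Anxa5 had 0.0504, S100a10 0.0504 and Anxa4 0.0891, and the cause was not tested. Leaving out 1 array gave 1 to 5 of the 10 genes lower and 0 higher. The share of all genes that passed under each alternative is not given here. These counts can therefore not be set against the 1.89% of all genes that fell in the fit as reported. No member passed as higher under any alternative, though Anxa3 stayed above 0. In the other lists, 14 genes fell and 3 rose. The count that fell was 8 without PSC replicates 2 and 5 together and 7 with the replicate block, and 6 to 18 with 1 array left out. The number that rose was 1 with all rows tested, 6 with brighter genes only (fewer genes tested), 5 with repeated quantile normalization, 5 with a variance trend, 10 at a threshold of 0.1 and 0 to 4 with 1 array left out. No partner relation passed after median centring either. Scaling moved the median log2 fold change of all genes between 0.0035 and 0.02. Detection calls were not used, so small changes of dim genes such as S100a8 are limited by background.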
